A study of Homo sapiens with 9 samples.

Results

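The circadian clock genes PER1, PER2, PER3, CRY1, CRY2, ARNTL (also named BMAL1), CLOCK, NR1D1, NR1D2 and DBP were followed in HCT116 cells, a human colorectal carcinoma line. They were chosen by name, as the core of the molecular clock, and all 10 were found among the 31558 genes of the count table. The cells came in 3 groups of 3 biological replicates. CRLM1-OE overexpressed the lncRNA CRLM1 (LINC01767) from a pTSB vector, Ctrl was the empty plasmid control and Anti was the antisense control. All groups shared the parental line and a medium with fetal bovine serum, and polyA RNA was sequenced. Whether a group was 1 clone or a pool of cells, the time of day at harvest and any synchronisation of the cultures were not given in the sources used here, so the phase of the clock in these cells is not known.

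The mammalian clock is a transcription loop. CLOCK and ARNTL pair as activators and bind E-boxes in the promoters of the PER, CRY, NR1D and DBP genes. PER and CRY proteins return to the nucleus and repress that pair, the REV-ERB receptors encoded by NR1D1 and NR1D2 repress ARNTL, and DBP, a factor that binds D-boxes, carries the rhythm to output genes. In the intestine and in colorectal tumour lines the loop has been linked to cell division and metabolism.

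Total counts per sample ranged from 33302292 to 44514692. CRLM1 checked the labels: its FPKM (fragments per kilobase of exon per 1e6 mapped fragments) was 1483, 1582 and 1500 in CRLM1-OE, 0 in every Ctrl sample and 78.5, 76.6 and 70.9 in Anti. Strand use in counting was not given in the sources used here. All 5 epithelial markers (EPCAM, KRT8, KRT18, KRT19 and CDH1) were present in all 9 samples, with a summed FPKM of 4846 to 4980 in the CRLM1-OE samples, 5517 to 5556 in those of Ctrl and 4569 to 4624 in those of Anti. They were not level between the groups: KRT18 had a mean FPKM of 426, 785 and 826 in CRLM1-OE, Ctrl and Anti, and EPCAM of 74.4, 87.8 and 93.1. Of 5 markers of other cells, PTPRC, PECAM1, COL3A1 and ALB did not exceed 0.03 FPKM, and COL1A1, a collagen gene of stromal cells, was at 2.02 to 2.48 in CRLM1-OE and 1.15 to 1.38 in the controls. The part of these marker differences in the clock results was not tested. The scale of the counts mattered for small differences. With TMM factors, which scale each library to the bulk of its genes, the median log2 fold change of genes averaging at least 100 counts was -0.0448 for CRLM1-OE against Ctrl, and with total counts it was 0.0965. For CRLM1-OE against Anti these medians were -0.0365 and 0.0227, and for Anti against Ctrl -0.0067 and 0.0981. Fold changes below use TMM, and every direction that differed with total counts is named beside its value.

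On GRCh38 (GENCODE version 44), the activator genes are ARNTL on chromosome 11 from 13276652 to 13387266 (forward strand) and CLOCK on chromosome 4 from 55427903 to 55546909 (reverse strand). The repressors are PER1 on chromosome 17 from 8140472 to 8156506 (reverse strand), PER2 on chromosome 2 from 238244044 to 238290102 (reverse strand), PER3 on chromosome 1 from 7784291 to 7845177 (forward strand), CRY1 on chromosome 12 from 106991364 to 107093549 (reverse strand) and CRY2 on chromosome 11 from 45847118 to 45883248 (forward strand). The REV-ERB genes are NR1D1 on chromosome 17 from 40092793 to 40100589 (reverse strand) and NR1D2 on chromosome 3 from 23945286 to 23980617 (forward strand), and the output gene is DBP on chromosome 19 from 48630030 to 48637379 (reverse strand). Expression was given per gene, not per exon or isoform.

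Promoter sequences were searched for the elements through which the loop acts. Among 35116 RefSeq promoters (GRCh38.p14), the 250 bases before the start held the E-box CACGTG in 6.34%, the D-box TTATGTAA or TTACGTAA in 0.94%, the REV-ERB and ROR element NTAGGTCA in 1.6% and the cyclic AMP element TGACGTCA in 1.65%, on either strand. Of the 15 listed promoters of the 10 genes, the E-box was found for PER1 and NR1D2, the D-box for PER3 and NR1D2, the REV-ERB and ROR element for CRY2 and the cyclic AMP element for none. No matches overlapped in these promoters. In Anti against Ctrl, 5 of the 10 genes had an edgeR adjusted p of at most 0.05. The 4 sequences below belong to 4 of them, PER1, NR1D1 and DBP lower in Anti and NR1D2 higher. They are the 250 bases before the RefSeq start, 5′ to 3′ on the strand of the gene, with E-boxes and D-boxes in capitals: PER1 at chr17:8152405-8152654 (reverse strand), NR1D2 at chr3:23945871-23946120 (forward strand), NR1D1 at chr17:40100590-40100839 and DBP at chr19:48637380-48637629 (both reverse strand). The RefSeq starts used for PER1 and NR1D2 lie inside the GENCODE spans given above. PER2, the other gene that was higher in Anti, is not printed. Its log2 fold change was larger than that of NR1D2 (0.33 and 0.12), and its listed promoter held none of the 4 motifs. A link between motifs and direction was not tested.
PER1: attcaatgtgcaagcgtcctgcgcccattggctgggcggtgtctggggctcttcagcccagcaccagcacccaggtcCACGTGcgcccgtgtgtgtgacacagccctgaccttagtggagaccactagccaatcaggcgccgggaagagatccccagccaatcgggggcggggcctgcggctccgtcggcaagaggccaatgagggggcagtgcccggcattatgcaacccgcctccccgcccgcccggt
NR1D2: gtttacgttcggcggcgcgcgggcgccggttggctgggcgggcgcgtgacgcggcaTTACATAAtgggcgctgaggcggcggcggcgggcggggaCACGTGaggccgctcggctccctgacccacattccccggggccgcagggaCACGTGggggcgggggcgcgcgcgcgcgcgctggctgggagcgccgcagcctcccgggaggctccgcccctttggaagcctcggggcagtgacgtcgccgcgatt
NR1D1: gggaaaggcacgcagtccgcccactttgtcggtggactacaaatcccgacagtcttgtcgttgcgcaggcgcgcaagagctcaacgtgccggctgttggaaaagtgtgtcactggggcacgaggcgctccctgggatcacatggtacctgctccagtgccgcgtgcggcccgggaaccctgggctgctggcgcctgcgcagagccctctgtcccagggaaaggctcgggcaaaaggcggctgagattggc
DBP: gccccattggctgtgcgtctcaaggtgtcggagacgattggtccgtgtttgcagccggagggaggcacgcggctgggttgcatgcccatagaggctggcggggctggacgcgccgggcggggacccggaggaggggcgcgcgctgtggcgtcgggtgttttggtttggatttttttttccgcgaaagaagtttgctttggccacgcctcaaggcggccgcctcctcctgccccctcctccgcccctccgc
The PER1 promoter held 1 E-box, 173 bases before the start. Of the 2 promoters listed for NR1D2, the one printed held 2, at 155 and 105 bases, with the D-box, here on the opposite strand, upstream of both, while the other, at chr3:23945036-23945285 and next to the GENCODE start, held none of the 4 motifs. None of the 4 motifs, as written, lay in the windows of NR1D1 and DBP, which says only that these letters are absent from them.

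Levels were first compared among the genes, per length. In Ctrl, NR1D1 had the highest FPKM, 70.6 ± 0.8 (SD, n = 3), followed by PER1 at 20.7 ± 0.603, DBP at 14.4 ± 0.456 and NR1D2 at 9.57 ± 0.684. CRY1 (4.05 ± 0.146), CRY2 (3.5 ± 0.17), ARNTL (2.68 ± 0.191) and PER2 (2.49 ± 0.147) came next, and the samples of ARNTL and PER2 overlapped. CLOCK (1.83 ± 0.0693) and PER3 (0.533 ± 0.0603) were the lowest. The order in CRLM1-OE was the same, but there CRY1 and CRY2 overlapped, and ARNTL and PER2 did not. In Anti, NR1D2 (11.1 ± 0.457) stood above DBP (10.3 ± 0.273), PER2 (3.33 ± 0.0656) stood above ARNTL (2.76 ± 0.118), and no neighbours overlapped. In all 3 groups NR1D1 was the most abundant of the 10 and PER3 the least, with PER3 counts of 120 to 191 per sample.

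**Figure D1:**
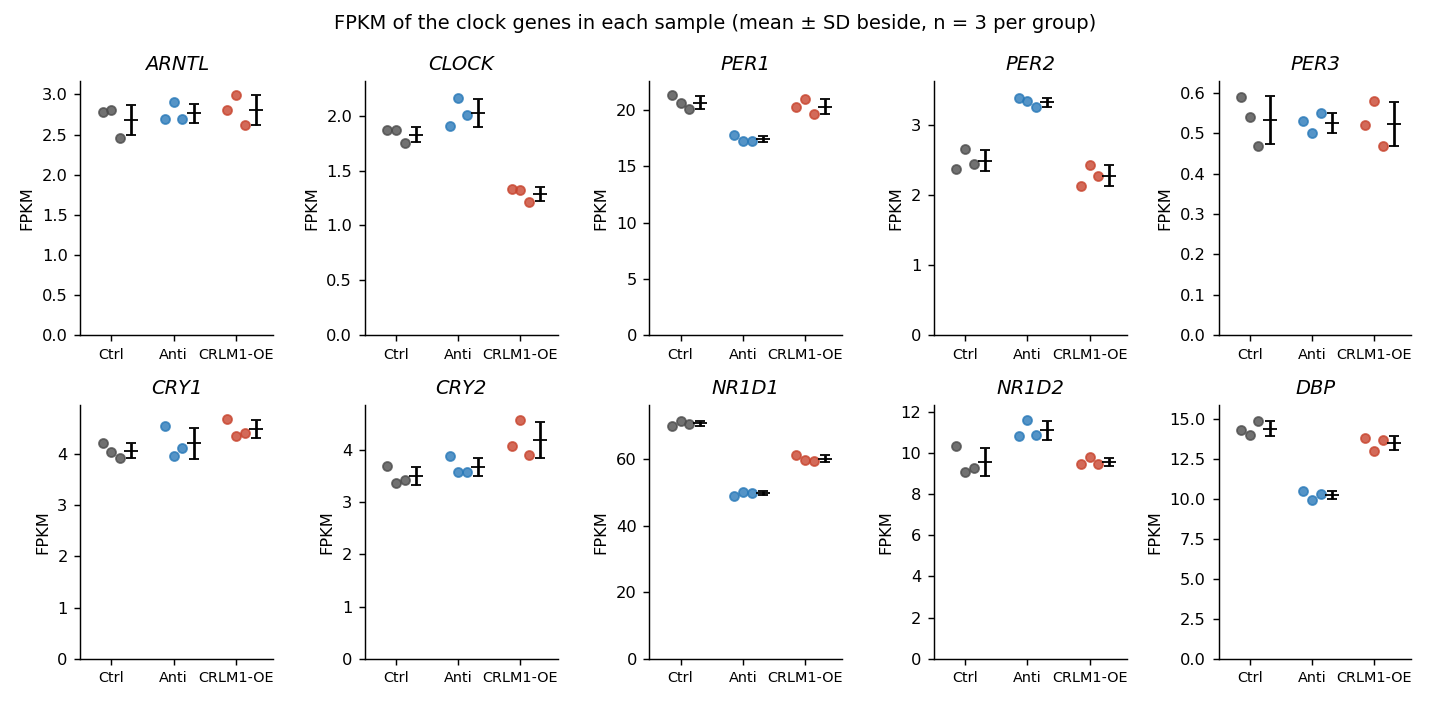
FPKM (vertical axes, each from 0) of the 10 clock genes in the 3 samples of Ctrl, Anti and CRLM1-OE (points), with the mean and SD of each group beside them (n = 3). CLOCK sits lowest in CRLM1-OE (1.21 to 1.33), the samples of NR1D1 and DBP separate into all 3 groups, and ARNTL and PER3 overlap throughout.

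The activators differed from each other. ARNTL had FPKM of 2.8, 2.99 and 2.62 in CRLM1-OE, 2.78, 2.8 and 2.46 in Ctrl and 2.7, 2.9 and 2.69 in Anti, and all groups overlapped. Its log2 fold change was -0.05 ± 0.086 (SE) for CRLM1-OE against Ctrl (0.09 with total counts), -0.03 ± 0.085 against Anti (0.03) and -0.05 ± 0.086 for Anti against Ctrl (0.05), and none passed (edgeR quasi-likelihood test, adjusted p of 0.67, 0.83 and 0.74). CLOCK, its partner, had FPKM of 1.33, 1.32 and 1.21 in CRLM1-OE, 1.87, 1.87 and 1.75 in Ctrl and 1.91, 2.16 and 2.01 in Anti. Every CRLM1-OE sample lay below every sample of both controls.

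CLOCK was 35.2% lower in CRLM1-OE than in Ctrl (log2 fold change -0.63 ± 0.061, edgeR adjusted p = 8.8e-24) and 38.5% lower than in Anti (-0.70 ± 0.059, adjusted p = 1.3e-31), the largest absolute log2 fold change among the 10 genes in both comparisons. With total counts the values were -0.48 and -0.64. Anti and Ctrl differed by 0.05 ± 0.055 (adjusted p = 0.58), or by 0.16 with total counts (adjusted p = 0.019). CLOCK shares 76 bases of exon with TMEM165 on the opposite strand. The mean count of TMEM165 was 598, 820 and 1030 in CRLM1-OE, Ctrl and Anti, and its part in the result was not tested.

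Among the 11702 genes averaging at least 100 counts in these comparisons, those nearest to CLOCK in the pair of log2 fold changes (CRLM1-OE against Ctrl and Anti against Ctrl) were EPB41L4A-AS1 (-0.63 and 0.05), ZNF557 (-0.63 and 0.06) and YES1 (-0.63 and 0.04). Their distances from CLOCK were 0.00632, 0.0107 and 0.0144 log2 units, and 34 genes lay within 0.05 and 114 within 0.1.

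Repressors of the PER family moved in different directions. PER1, which is also induced acutely by hormones and stress, had FPKM of 20.3, 21 and 19.7 in CRLM1-OE, 21.3, 20.6 and 20.1 in Ctrl and 17.8, 17.2 and 17.3 in Anti. Anti lay below both other groups, which overlapped each other. PER1 was 20.9% lower in Anti than in Ctrl (log2 fold change -0.34 ± 0.029, edgeR adjusted p = 8.3e-29) and 12.9% higher in CRLM1-OE than in Anti (0.17 ± 0.028, adjusted p = 1.6e-09). Its difference between CRLM1-OE and Ctrl was -0.14 ± 0.029 with TMM (adjusted p = 8.5e-06) and 0.0 with total counts (adjusted p = 1), so a change there held on 1 scale and not on the other.

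PER2, a repressor of the CLOCK and ARNTL pair like PER1, had FPKM of 2.13, 2.43 and 2.27 in CRLM1-OE, 2.38, 2.66 and 2.44 in Ctrl and 3.39, 3.34 and 3.26 in Anti. Here Anti lay above both other groups, the reverse of PER1. PER2 was 34.0% lower in CRLM1-OE than in Anti (log2 fold change -0.60 ± 0.06, edgeR adjusted p = 2.6e-22) and 25.5% higher in Anti than in Ctrl (0.33 ± 0.06, adjusted p = 3.9e-07). Against Ctrl, CRLM1-OE differed by -0.25 ± 0.064 (adjusted p = 0.00051), and by -0.11 with total counts (adjusted p = 0.23). PER3 passed in no comparison: its FPKM of 0.47 to 0.58 in CRLM1-OE, 0.47 to 0.59 in Ctrl and 0.5 to 0.55 in Anti overlapped. Its log2 fold changes were -0.16, -0.06 and -0.12 for CRLM1-OE against Ctrl, CRLM1-OE against Anti and Anti against Ctrl (SE of 0.13 in each, adjusted p of 0.42, 0.75 and 0.58 in edgeR). PER3 also shares 868 exonic bases with UTS2 on the opposite strand (mean count of 92.7, 70.7 and 63.7 in CRLM1-OE, Ctrl and Anti).

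The cryptochromes, the partners of the PER proteins in repression, passed in none of the comparisons in the fit used, but the call on CRY2 depended on the setting. CRY1 had FPKM of 4.68, 4.35 and 4.41 in CRLM1-OE, 4.21, 4.03 and 3.92 in Ctrl and 4.54, 3.95 and 4.12 in Anti. CRY2 had 4.08, 4.57 and 3.91 in CRLM1-OE, 3.69, 3.37 and 3.43 in Ctrl and 3.88, 3.57 and 3.57 in Anti. On the FPKM scale, CRLM1-OE lay above Ctrl for both genes and above Anti for CRY2. With TMM the difference of CRY2 was 0.14 ± 0.062 against Ctrl (edgeR adjusted p = 0.076) and 0.14 ± 0.061 against Anti (adjusted p = 0.065), and that of CRY1 was 0.03 ± 0.067 and 0.05 ± 0.066. Anti and Ctrl differed by -0.04 ± 0.069 for CRY1 and -0.02 ± 0.064 for CRY2 (0.07 and 0.08 with total counts). With total counts CRY2 passed against Ctrl (0.28, adjusted p = 3.7e-05) and Anti (0.20, adjusted p = 0.0041), and CRY1 passed against Ctrl (0.17, adjusted p = 0.035). CRY2 also passed with TMM against Ctrl without CRLM1-OE replicate 3 (0.181, edgeR adjusted p = 0.03) or Ctrl replicate 1 (0.186, adjusted p = 0.028), and against Anti without CRLM1-OE replicate 3 (0.191, adjusted p = 0.015) or Anti replicate 1 (0.173, adjusted p = 0.036). With TMM and the filterByExpr gene filter it passed against Ctrl (0.153, edgeR adjusted p = 0.033) and Anti (0.145, adjusted p = 0.036). In all, CRY2 passed in 7 of 16 alternatives against Ctrl and in 6 of 16 against Anti. CRY1 passed in 2 of 16 against Ctrl.

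The 2 REV-ERB receptors, nuclear receptors that bind heme, were ordered differently across the groups. NR1D1 had FPKM of 61.2, 59.6 and 59.4 in CRLM1-OE, 69.9, 71.5 and 70.5 in Ctrl and 49.0, 50.1 and 49.9 in Anti, and no groups overlapped. It was 21.4% lower in CRLM1-OE than in Ctrl (log2 fold change -0.35 ± 0.026, edgeR adjusted p = 9.9e-40) and 34.0% lower in Anti than in Ctrl (-0.60 ± 0.026, adjusted p = 3.3e-113). Between CRLM1-OE and Anti it was 17.2% higher in CRLM1-OE (0.23 ± 0.025, adjusted p = 1.3e-19). With total counts these differences were -0.21, -0.49 and 0.29. NR1D1 shares 473 exonic bases with THRA on the opposite strand, whose mean count was 1226, 747 and 644 in CRLM1-OE, Ctrl and Anti, and its part in the result was not tested.

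NR1D2 had FPKM of 9.48, 9.8 and 9.46 in CRLM1-OE, 10.35, 9.07 and 9.29 in Ctrl and 10.8, 11.6 and 10.85 in Anti. Anti was the highest group for NR1D2 and the lowest for NR1D1. NR1D2 was 16.4% lower in CRLM1-OE than in Anti (-0.26 ± 0.036, edgeR adjusted p = 3.2e-12) and 8.58% higher in Anti than in Ctrl (0.12 ± 0.037, adjusted p = 0.0068). Between CRLM1-OE and Ctrl it was -0.12 ± 0.038 with TMM (adjusted p = 0.0086) and 0.02 with total counts (adjusted p = 0.66), so the direction rested on the scale. It did not pass without CRLM1-OE replicate 1 (-0.106, adjusted p = 0.053) or Ctrl replicate 1 (-0.049, adjusted p = 0.48), and in Anti against Ctrl it did not pass without Ctrl replicate 2 (0.093, adjusted p = 0.098) or Anti replicate 2 (0.08, adjusted p = 0.19), and was 0.181 without Ctrl replicate 1 and 0.22 with total counts.

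DBP, the output factor that binds D-boxes, had the same order of group means as NR1D1 and PER1. Its FPKM was 13.85, 13.0 and 13.7 in CRLM1-OE, 14.3, 14.0 and 14.9 in Ctrl and 10.5, 9.96 and 10.3 in Anti. Each Anti sample lay below every other sample, and each CRLM1-OE sample lay below every Ctrl sample. DBP was 33.2% lower in Anti than in Ctrl (log2 fold change -0.58 ± 0.044, edgeR adjusted p = 4.7e-38) and 27.9% higher in CRLM1-OE than in Anti (0.35 ± 0.044, adjusted p = 5.6e-15). Its difference between CRLM1-OE and Ctrl, -0.20 ± 0.042 (adjusted p = 6e-06), was -0.06 with total counts (adjusted p = 0.3). DBP shares 661 exonic bases with SPHK2 on the opposite strand. The mean count of SPHK2 was 585, 585 and 628 in CRLM1-OE, Ctrl and Anti, and its part in the result was not tested.

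Counted over the 10 genes, 0 rose and 6 fell in CRLM1-OE against Ctrl at an adjusted p of at most 0.05 (PER1, PER2, CLOCK, NR1D1, NR1D2 and DBP), and 4 did not pass. Over all 29846 genes tested, 15.0% rose and 16.8% fell, and over the 11716 with a mean count of at least 100, a level all 10 clock genes reached, 29.2% rose and 38.8% fell. With total counts 2 of the 10 rose (CRY1 and CRY2) and 2 fell (CLOCK and NR1D1), while 22.3% of all genes tested rose and 9.89% fell, or 44.7% and 22.5% of those at that count level. With TMM the clock genes that passed, 60.0% of 10, were thus no larger a share than the 68.0% of genes at that level. None of the 10 was called by the rule of the study, a fold change of at least 2 with an adjusted p of at most 0.05, by which 3.41% of all genes tested were called, while 7 had an unadjusted p under 0.05, as did 36.7% of all genes and 73.5% of those averaging at least 100 counts. DESeq2 and limma also called 0 at 2-fold, and for 0 that rose, DESeq2 gave 0 and limma 1 to 2. The median log2 fold change of the 10 was -0.149, beside 0.017 for all genes tested and -0.045 for those with a mean count of at least 100, and their median absolute change was 0.149, beside 0.464 and 0.232.

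In CRLM1-OE against Anti, 3 of the 10 rose (PER1, NR1D1 and DBP), 3 fell (PER2, CLOCK and NR1D2) and 4 did not pass, while 17.1% of 30183 genes tested rose and 18.5% fell. Among the 11765 genes averaging at least 100 counts, 33.9% rose and 40.2% fell. CRY2 rose as well with total counts, RLE factors and filterByExpr (0.197, 0.146 and 0.145). In these fits 5957 and 5279 of 30183 genes and 5174 of 16137 rose. None of the 10 was called at 2-fold, where 5.65% of all genes were, and 7 had an unadjusted p under 0.05, as did 40.1% of all genes and 78.4% of those averaging at least 100 counts. In Anti against Ctrl, 2 rose (PER2 and NR1D2), 3 fell (PER1, NR1D1 and DBP) and 5 did not pass. There 11.5% of the 29714 genes tested rose and 12.2% fell, with 25.3% and 28.9% of the 11623 genes averaging at least 100 counts. With total counts CLOCK rose as well (0.157, edgeR adjusted p = 0.019), while 18.5% of all genes tested rose and 6.83% fell. Again none was called at 2-fold, with 1.06% of all genes called and 5 clock genes at an unadjusted p under 0.05, beside 29.8% of all genes and 62.8% at the higher count level. The comparisons share samples, so their values are given side by side and not as independent results.

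**Figure D2:**
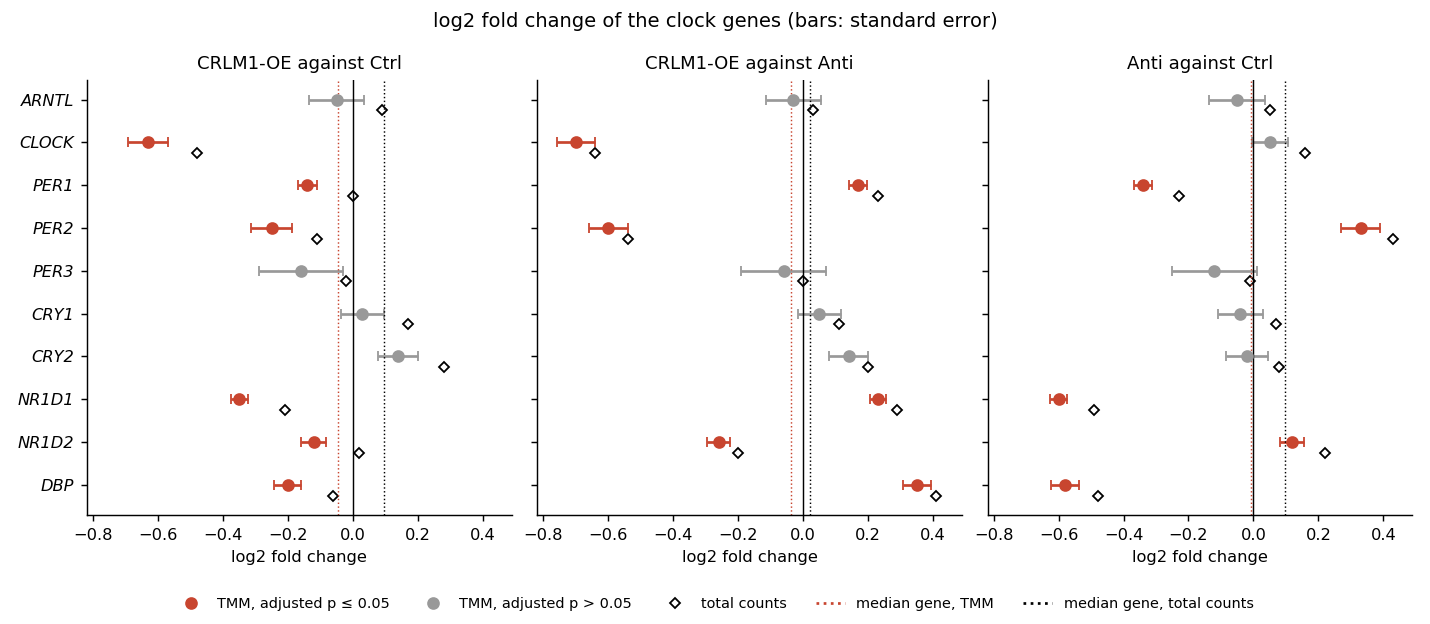
log2 fold change (horizontal axis) of the 10 clock genes in the 3 comparisons, with TMM factors (circles with SE, red where the edgeR adjusted p is at most 0.05) and with total counts (diamonds). Dotted lines mark the median gene among those averaging at least 100 counts on each scale. CLOCK lies near -0.63 and -0.70 against both controls, and NR1D1, DBP and PER1 lie left of 0 in Anti against Ctrl on both scales.

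Differences relative to the median gene do not depend on the scale, up to rounding. In CRLM1-OE against Ctrl they were -0.58 for CLOCK, -0.30 for NR1D1, -0.20 for PER2, -0.16 for DBP, -0.10 for PER1 and -0.07 for NR1D2, in log2 units. For the genes that had not passed they were -0.11 for PER3, -0.01 for ARNTL, 0.07 for CRY1 and 0.18 for CRY2. PER1 and NR1D2 were thus no further from the median gene than PER3 and CRY1. A second view free of library scaling is the ratio of each gene to ARNTL, whose groups overlapped, within the same sample. The log2 ratio of CLOCK to ARNTL counts was 0.83, 0.72 and 0.79 in CRLM1-OE, 1.34, 1.33 and 1.42 in Ctrl and 1.41, 1.48 and 1.49 in Anti. CRLM1-OE lay below both controls, by 0.58 from Ctrl and 0.68 from Anti (pooled SD of 0.052 for the former). The ratio of NR1D1 to ARNTL was 4.32, 4.19 and 4.38 in CRLM1-OE, 4.53, 4.55 and 4.71 in Ctrl and 4.06, 3.98 and 4.09 in Anti, with no overlap. In CRLM1-OE against Ctrl, the ratios of CLOCK and NR1D1 lay below and that of CRY2 above (a difference of 0.19), and those of PER1, PER2, PER3, CRY1, NR1D2 and DBP overlapped. How many of all genes separate in this way was not counted, so nothing particular to the clock genes is read from it. In the edgeR test 68.0% of genes averaging at least 100 counts passed in this comparison. With 3 samples against 3, an exact two-sided permutation test cannot give a p below 0.1, so these ratios carry no test.

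**Figure D3:**
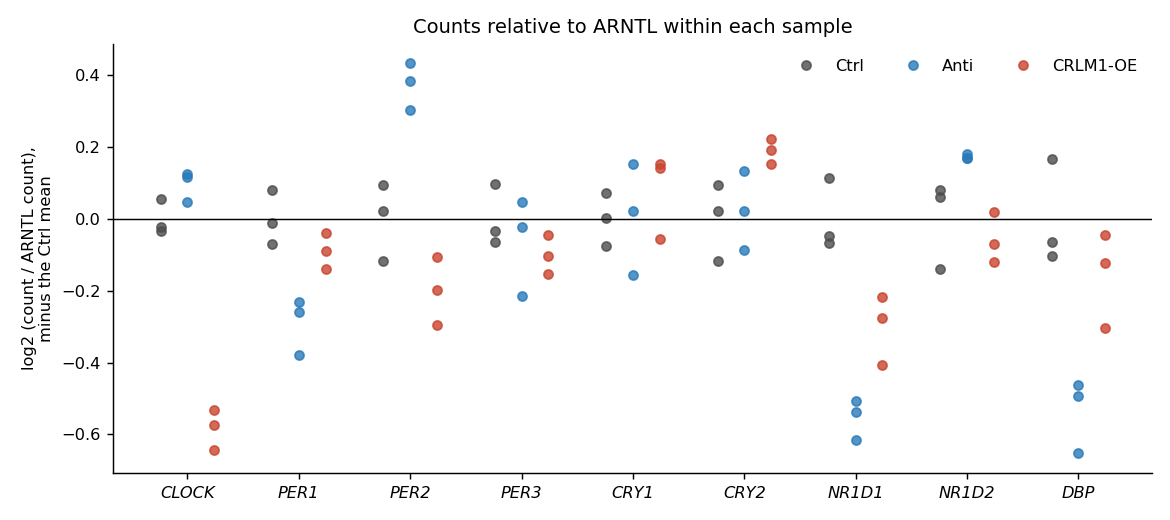
log2 ratio of each clock gene's count to the ARNTL count in the same sample (vertical axis, minus the mean of the Ctrl samples), with 3 points for each of Ctrl, Anti and CRLM1-OE. The CRLM1-OE points of CLOCK stand apart below both controls, and the Anti points stand apart above for PER2 and NR1D2 and below for PER1, NR1D1 and DBP.

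The wider clock pathway was read from a list of 23 other genes, of which 22 had counts and 17 a mean count of at least 100. In CRLM1-OE against Ctrl, 6 of the 21 tested rose and 4 fell, beside 15.0% and 16.8% of all genes tested. Of the 17 with the higher counts 52.9% passed, beside 68.0% of all genes at that level. With total counts 12 rose and 2 fell, on a scale where genes in general also moved up (44.7% rose and 22.5% fell at that level). In CRLM1-OE against Anti, 11 of 22 rose and 6 fell, beside 17.1% and 18.5% of all genes tested. Of the 17, 88.2% passed, beside 74.2% of genes at that level. At 2-fold 2 of the list were called, HLF among them, beside 5.65% of all genes tested. In Anti against Ctrl, 6 rose and 10 fell, beside 11.5% and 12.2% of all genes tested. Of the 17, 82.4% passed, beside 54.2% of genes at that level. HLF was called at 2-fold, as were 1.06% of all genes tested. With total counts 7 rose and 5 fell there, while 18.5% of all genes rose and 6.83% fell, or 41.5% and 16.0% at the higher count level. Of the 4 kinases that phosphorylate PER proteins, 2 rose and 1 fell in CRLM1-OE against Ctrl (log2 fold changes between -0.12 and 0.15), 3 rose and 1 fell against Anti (-0.16 to 0.37), and 0 rose and 3 fell in Anti against Ctrl (-0.25 to 0.02). With the higher counts these kinases have, the shares over genes given above are 29.2% and 38.8%, 33.9% and 40.2%, and 25.3% and 28.9%. With total counts CSNK1A1, the kinase that fell against Ctrl, was at 0.02 (edgeR adjusted p = 0.65). CSNK1D rose there on that scale (0.14, adjusted p = 5.5e-08). In Anti against Ctrl, CSNK1E turned to 0.02 with total counts (adjusted p = 0.61) and CSNK1A1 rose (0.12, adjusted p = 4.6e-06).

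The largest change among the pathway genes averaging at least 100 counts in both comparisons of CRLM1-OE was that of ARNTL2. This paralog, which can stand in for ARNTL, had FPKM of 2.84, 2.8 and 3.09 in CRLM1-OE, 4.54, 4.04 and 4.39 in Ctrl and 5.15, 5.27 and 5.42 in Anti. It fell in CRLM1-OE by 37.8% against Ctrl (log2 fold change -0.68 ± 0.051, edgeR adjusted p = 2.9e-39) and by 46.5% against Anti (-0.90 ± 0.048, adjusted p = 2.4e-76).

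The D-box factors TEF and HLF, relatives of DBP, were lowest in CRLM1-OE. TEF had FPKM of 4.48, 4.43 and 4.22 in CRLM1-OE, 5.81, 5.83 and 5.87 in Ctrl and 6.85, 7.17 and 7.12 in Anti, with no overlap. It was 30.7% lower in CRLM1-OE than in Ctrl (log2 fold change -0.53 ± 0.052, edgeR adjusted p = 8.5e-23) and 39.8% lower than in Anti (-0.73 ± 0.049, adjusted p = 3.7e-48). HLF was sparse, with counts of 39, 20 and 27 in CRLM1-OE, 52, 48 and 23 in Ctrl and 114, 93 and 69 in Anti. It was 70.1% lower in CRLM1-OE than in Anti (-1.74 ± 0.21, adjusted p = 2.2e-16), while CRLM1-OE and Ctrl overlapped (-0.62 ± 0.25, adjusted p = 0.043, a call made in 6 of 16 alternatives and lost without CRLM1-OE replicate 2 or 3 or Ctrl replicate 1 or 2, at -0.431 to -0.579). DBP thus had its lowest level in Anti, where TEF and HLF had their highest.

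NFIL3, a repressor at the same D-boxes, and BHLHE40, a repressor at E-boxes, were named after their values were seen. NFIL3 had FPKM of 50.03, 51.5 and 49.1 in CRLM1-OE, 48.6, 46.6 and 48.2 in Ctrl and 37.2, 37.5 and 38.5 in Anti, and fell in Anti against Ctrl (-0.44 ± 0.031, edgeR adjusted p = 3.7e-43). BHLHE40 had 157, 158 and 155 in CRLM1-OE, 144, 142 and 140 in Ctrl and 124, 124 and 125 in Anti, and fell in Anti against Ctrl (-0.28 ± 0.021, adjusted p = 2.3e-38, or -0.18 with total counts). In CRLM1-OE against Ctrl neither passed with TMM, NFIL3 at -0.05 ± 0.03 (edgeR adjusted p = 0.3) and BHLHE40 at 0.03 ± 0.021 (adjusted p = 0.42). With total counts both passed there, NFIL3 at 0.1 (adjusted p = 0.0053) and BHLHE40 at 0.17 (adjusted p = 1.1e-14). Anti was the lowest group for NFIL3 and BHLHE40, as for PER1, NR1D1 and DBP. As they were named with their values known, that likeness carries no weight. With TMM, 10 genes of the whole list fell and 6 rose in Anti against Ctrl, beside 12.2% and 11.5% of all genes tested. The list leaned the other way with total counts, as given above. Of its 17 genes averaging at least 100 counts, 10 fell and 4 rose with TMM, beside 28.9% and 25.3% of genes at that level. ARNTL2 (0.2), TEF (0.18) and HLF (1.1) were among the 6 that rose.

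BHLHE41, the other E-box repressor of that pair, had FPKM of 1.57, 1.83 and 1.44 in CRLM1-OE, 0.92, 1.01 and 1.13 in Ctrl and 1.25, 0.86 and 1.35 in Anti. It was 46.4% higher in CRLM1-OE than in Ctrl (log2 fold change 0.55 ± 0.11, edgeR adjusted p = 1.9e-06) and 35.2% higher than in Anti (0.44 ± 0.1, adjusted p = 0.00012). The difference from Anti was 0.273 without Anti replicate 2 (edgeR adjusted p = 0.046) and did not pass with limma at pseudocounts of 0.1 and 1 (0.467 and 0.284, adjusted p = 0.1 in both). USP2, a deubiquitinase and clock output gene, had FPKM of 3.09, 2.99 and 2.7 in CRLM1-OE, 2.39, 2.38 and 2.44 in Ctrl and 1.88, 2.14 and 1.87 in Anti. It rose in CRLM1-OE against Anti (0.53 ± 0.078, edgeR adjusted p = 7.7e-11) and fell in Anti against Ctrl (-0.38 ± 0.083, adjusted p = 3.4e-05). In CRLM1-OE against Ctrl it was 0.17 ± 0.075 (adjusted p = 0.07), and it passed there in 6 of 16 alternatives. Those were total counts (0.311, edgeR adjusted p = 0.00017), filterByExpr (0.184), every limma fit (0.205 to 0.272) and the fit without CRLM1-OE replicate 3 (0.222, edgeR adjusted p = 0.028). USP2 shares 1142 exonic bases with USP2-AS1 on the opposite strand, whose mean count was 94.7, 147 and 184 in CRLM1-OE, Ctrl and Anti.

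**Figure D4:**
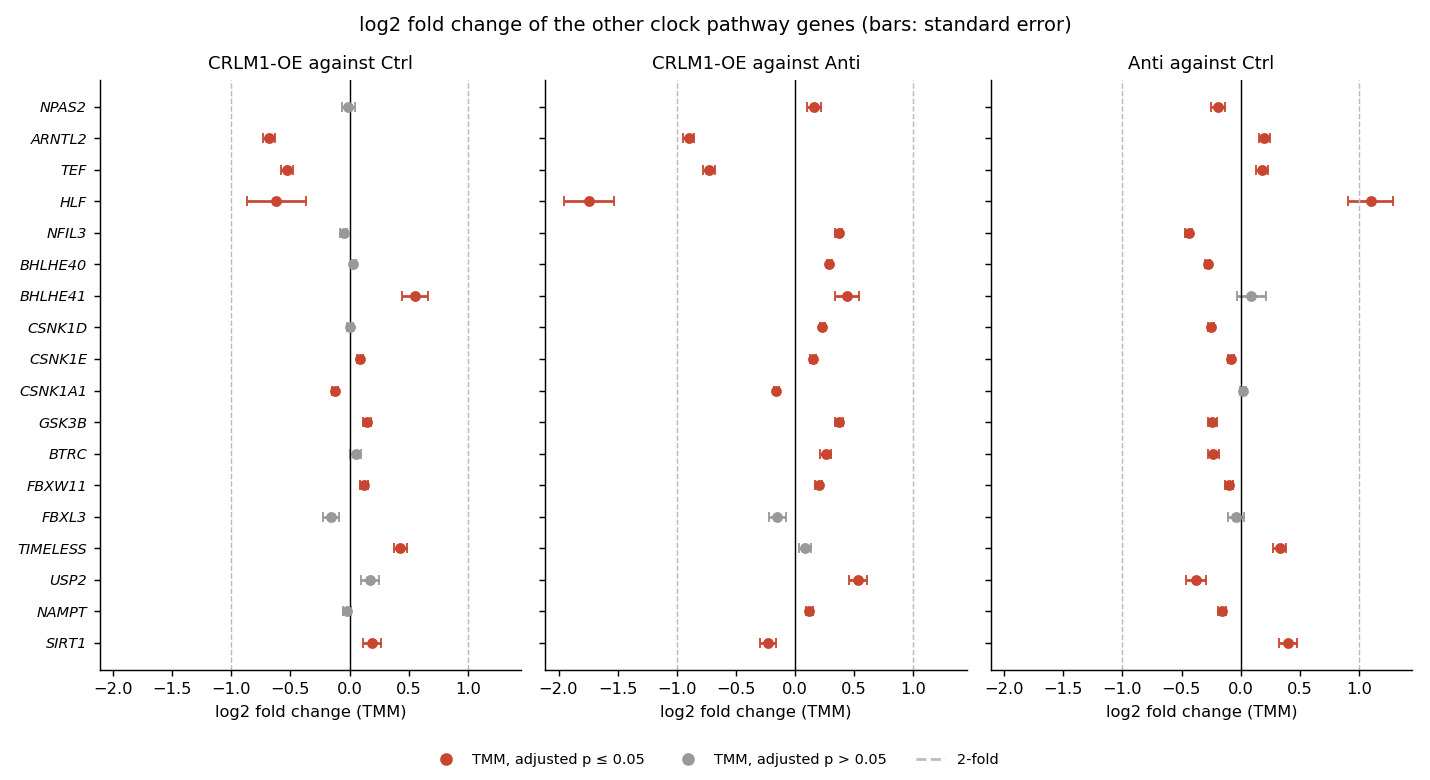
log2 fold change with SE (horizontal axis, TMM factors) of 18 other clock pathway genes with at least 10 counts in a sample, in the 3 comparisons, red where the edgeR adjusted p is at most 0.05. Dashed lines mark 2-fold. ARNTL2, TEF and HLF lie left of 0 in both comparisons of CRLM1-OE, and HLF passes 2-fold in CRLM1-OE against Anti and in Anti against Ctrl.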

How the data were processed

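RNA-seq of HCT116 cells gave 9 samples, grouped by their labels into CRLM1-OE, Ctrl and Anti (3 biological replicates each). The authors aligned reads with TopHat2 (4 mismatches) to GRCh38 with Gencode version 23 and counted uniquely mapped reads for each gene; these raw counts were deposited. The FPKM values deposited by the authors are scaled for exon length and mapped fragments. Strand use in counting was not given in the sources used here.

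The members and lists were chosen with earlier results of these data known. Counts were tested with edgeR 4.0.16 under R 4.3.3 (TMM scaling, estimateDisp, glmQLFit, glmQLFTest, Benjamini-Hochberg adjustment over all genes) on the 6 samples of each comparison, for genes with at least 1 count in them. The fitted prior degrees of freedom were infinite, so each p measured a difference against the spread typical of genes at that level, not against the gene's own. On simulated counts of 28283 genes for CRLM1-OE against Ctrl, 100% of planted 2-fold changes and 99% of planted log2 changes of 0.5 were recovered, and 12 genes without a planted change were called. The counts were drawn with the spread typical of genes at each level, as the fit assumes, and changes were planted only in genes averaging at least 100 counts. Recovery therefore says nothing about genes with a spread of their own or about sparse genes such as HLF. Named genes are the 10 members, the pathway genes with an adjusted p of at most 0.05 and an absolute log2 fold change of at least 0.5 in a comparison of CRLM1-OE or called at 2-fold, the 3 genes nearest to the member with the largest change, and CRLM1. NFIL3 and BHLHE40 fall outside this rule. The result of 1 pathway gene that meets it is not reported here.

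Alternatives were RLE factors, total counts, filterByExpr, DESeq2 1.42.0, limma 3.58.1 on log2(FPKM + 0.1) and log2(FPKM + 1), a mean FPKM filter of 0.1, a joint fit of the 9 samples, a replicate block, omission of single replicates and, added after the data were seen, the newer edgeR fit (legacy off). The planned legacy alternative was the same as the fit used. Total counts of 33302292 to 44514692 set a floor of 3 counts at 0.0674 to 0.0901 CPM, which covers counting error only. Exon overlaps and positions came from GENCODE version 44, and promoters from RefSeq.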

Additional observations from a re-analysis of the deposited data

How the results depend on the processing

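Limits: p values rest on 3 replicates per group and on a spread shared across genes, and small differences between CRLM1-OE and Ctrl rest on the scaling. CLOCK against both controls and NR1D1 in all 3 comparisons passed in all 16 alternatives, as did PER1, PER2 and DBP in CRLM1-OE against Anti and in Anti against Ctrl. In CRLM1-OE against Ctrl, PER1, PER2 and DBP passed in 12 of 16 and NR1D2 in 9. Over 54 gene values under 16 alternatives each (864 in all), 772 kept direction and side of the threshold, 34 calls were lost (5 of them with a change of direction), 27 were gained (1 with a change of direction) and 37 values changed direction, and the cause was not tested. On log2(FPKM + 1), which shrinks low genes by construction, CLOCK was -0.308 against Ctrl and -0.404 against Anti.

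For limma with a pseudocount of 0.1, the same with the FPKM filter, limma with a pseudocount of 1 and total counts, in that order, the log2 fold changes that turned were as follows. In CRLM1-OE against Ctrl they were 0.063, 0.063, 0.048 and 0.086 for ARNTL, 0.004, 0.004, 0.003 and 0.025 for NR1D2, and 0.07, 0.07, 0.069 and 0.096 for NFIL3, and PER1 was 0.0 with total counts. In CRLM1-OE against Anti ARNTL gave 0.019, 0.019, 0.015 and 0.032. In Anti against Ctrl they were 0.044, 0.044, 0.033 and 0.055 for ARNTL, 0.049, 0.049, 0.041 and 0.066 for CRY1, and 0.069, 0.069, 0.056 and 0.082 for CRY2. Leaving out each replicate in turn turned the direction of ARNTL in CRLM1-OE against Anti (-0.071 to 0.027), PER3 there (-0.134 to 0.016), CRY1 in CRLM1-OE against Ctrl (-0.002 to 0.065), and in Anti against Ctrl CRY1 (-0.102 to 0.001), CRY2 (-0.067 to 0.02) and BHLHE41 (-0.025 to 0.26), none of which had passed.

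In CRLM1-OE against Ctrl, clock genes that rose numbered 1 with filterByExpr, 1, 2 and 1 in the limma fits above, 2 with total counts and 0 to 1 with a replicate left out. Those that fell numbered 2 in each limma fit and with total counts, and 5 to 6 with a replicate left out. Pathway genes that rose there numbered 10 in each limma fit, 12 with total counts and 4 to 7 with a replicate left out, and those that fell 2, 2 and 3 to 4. Over all genes the limma fits also leaned up there, with 5145, 5673 and 5185 rising and 2667, 3013 and 2655 falling. They tested 29619, 17569 and 29619 genes, and the fit used gave 4462 and 5016 of 29846. With filterByExpr 4644 of 15971 rose. With a replicate left out 4042 to 4310 rose and 4510 to 4708 fell. Pathway genes called at 2-fold in CRLM1-OE against Anti numbered 1, 1 and 0 in the limma fits. Over all genes, 607, 607 and 127 were called higher there and 403, 415 and 99 lower. In Anti against Ctrl, clock genes that rose numbered 1 with limma at a pseudocount of 1 and 1 to 2 with a replicate left out (1 without Anti replicate 2 and without Ctrl replicate 2), pathway genes that fell 6 in each limma fit, 5 with total counts and 7 to 10 with a replicate left out, and pathway genes called 0 in each limma fit and 0 to 1 with a replicate left out. Over all genes, 3784, 4572 and 3761 rose in the limma fits there and 1744, 2073 and 1746 fell. With a replicate left out 3000 to 3276 rose and 3137 to 3365 fell. With total counts CLOCK rose there beside PER2 and NR1D2, while 5500 genes rose and 2029 fell.

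The replicate numbers did not pair the samples: same-numbered deviations correlated between -0.0734 and 0.067. With the replicate block, the clock genes that rose and fell in CRLM1-OE against Ctrl numbered 0 and 6.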
